A study of Mus musculus with 6 samples.

Results

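The cell cycle and DNA replication genes described here are 69 gene names on a spotted mouse cDNA array of 8272 probes. A name was taken when its annotation held any of these terms (cyclin, cell division cycle, minichromosome, polymerase (DNA, replication, origin recognition, centromere, kinesin, mitotic or topoisomerase (DNA)), and cyclin-dependent kinase inhibitor 1B was left out. The terms found 89 probes, and where a name had several probes (14 names) the brightest one stood for it. In 5 names the letters lie inside another word: Cacybp and S100a6 (calcyclin), Hmox1 and Hmox2 (decycling) and a tetracycline transporter-like protein. They are kept in the counts although the rule met them only by their letters, which leaves 64 names. Some of those 64 are also not cell cycle genes in function, among them Pigu, a subunit of the enzyme that attaches glycolipid anchors, and Cdc37, a partner of the chaperone Hsp90.

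The samples were ovaries of C57Bl/6J mice taken at less than 24 hours after birth (day 0), at day 2 and at day 4. Follicles form around day 2 in this strain, per the series text, and start to grow soon after. Each of the 6 arrays compared 1 RNA of day 2 or day 4, labelled with Cy5, with 1 RNA of day 0, labelled with Cy3, with 3 arrays per age, and the labels call the RNAs of an age biological replicates without saying how many animals each came from. No treatment or allele is given for any group. The values are log2 ratios to day 0, so that 1 stands for a 2-fold higher and −1 for a 2-fold lower signal at the later day.

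A cell divides by copying its DNA once and then sharing the copies between 2 daughters. Cyclins are the regulatory partners of the cyclin-dependent kinases, which drive each step. Licensing proteins mark the places where copying starts, the DNA polymerases with their clamp loader and single-strand binding proteins do the copying, and topoisomerases relieve the twist that builds up. Centromere proteins and kinesins, motors that walk along microtubules, then move the chromosomes apart. In the newborn ovary, oocytes have left mitosis and rest in meiosis, while granulosa and stromal cells can still divide.

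Many genes of the cycle are switched on together through short promoter motifs, and 5 promoters are printed, of genes named in the results that follow. A promoter window was found in RefSeq (GRCm38.p6) for 49 of 69 names, and the 250 bases before the start were searched on both strands in any window of a gene. The CHR motif (TTTGAA), a mark of genes used in late cell cycle, was found in 9 of 49 members (18.4%) and in 18.3% of 27025 genes. The CCAAT box (CCAAT) was found in 26 of 49 (53.1%) and in 37.5% of genes. The E2F words (TTTCCCGC, TTTGGCGC, TTTGCCGC and TTTCGCGC) were found in 7 of 49 (14.3%) and in 2.16% of genes: Cdc25a, Cdc6, Cdk1, Kif18a, Orc1, Pole4 and Rfc3. Below are the 150 bases before the start, 5′ to 3′, with matches to the 3 motifs in capitals, in either orientation. Windows of these genes without a match in those bases were not printed, so every stretch below holds a match by design. No match in these stretches overlaps another.
Cdk1, chr10:69352913-69353062, minus strand: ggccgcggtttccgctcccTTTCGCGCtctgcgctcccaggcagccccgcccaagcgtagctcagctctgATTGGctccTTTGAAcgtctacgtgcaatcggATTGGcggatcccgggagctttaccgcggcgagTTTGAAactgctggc
Cdc20, chr4:118437344-118437493, minus strand: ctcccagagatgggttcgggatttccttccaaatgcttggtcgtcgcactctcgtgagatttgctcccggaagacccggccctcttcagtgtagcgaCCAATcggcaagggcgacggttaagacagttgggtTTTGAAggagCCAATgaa
Ccnb1, chr13:100786487-100786636, minus strand: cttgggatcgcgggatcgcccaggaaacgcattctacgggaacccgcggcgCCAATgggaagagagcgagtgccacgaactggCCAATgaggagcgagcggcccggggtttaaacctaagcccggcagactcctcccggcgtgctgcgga
Cdc6, chr11:98908001-98908150, plus strand: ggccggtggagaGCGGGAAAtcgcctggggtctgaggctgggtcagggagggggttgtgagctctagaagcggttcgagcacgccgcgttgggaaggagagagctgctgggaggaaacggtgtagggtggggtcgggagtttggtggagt
Ccnd3, chr17:47593317-47593466, plus strand: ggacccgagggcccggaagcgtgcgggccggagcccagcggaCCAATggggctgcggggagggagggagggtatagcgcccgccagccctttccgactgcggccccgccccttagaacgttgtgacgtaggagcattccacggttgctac
Cdk1, the kinase of mitosis, holds matches to all 3 motifs. Cdc20, which activates the complex that ends mitosis, and Ccnb1, the mitotic cyclin, each hold CCAAT matches, and Cdc20 also a CHR match. Cdc6, a licensing factor, holds an E2F word. Ccnd3, a cyclin of the first growth phase, has 1 CCAAT match in the window shown. Members with a CHR match had a median log2 ratio at day 4 of −0.05, against −0.09 without one. With an E2F word the median was −0.07, against −0.09 without one, and with a CCAAT box it was −0.08, against −0.08 without one. A match describes letters only.

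The arrays differed before any comparison. Day 2 arrays 1 and 2, which share an age and a dye orientation, ran against each other with r = −0.68 over 8272 probes and −0.78 over the 69 members. The direction of the day 2 values is therefore not settled, although the file headers give the same dyes for both, and the main counts and medians and the means of most members named at day 2 are also given with 1 of these arrays turned. Values of single arrays are given as deposited. Day 2 array 3 and day 4 array 3 have their day 0 RNA in common, while no other pair of arrays does. Since Cy5 always marked the later day, change with age and a gene's own dye effect cannot be told apart in either comparison with day 0. Day 4 array 3 had values for 5630 probes and for 53 of 69 members. The number of arrays limits the precision, and the standard error (SE) of the members ran from 0.10 to 0.61 with a median of 0.21 at day 4. Each SE pools the spread of both ages, so the spread between the opposed day 2 arrays also enters the SE at day 4.

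Markers of cell types were read beside the members at day 4 against day 0. All 7 measured oocyte genes had positive values at day 4 (0.90 to 3.38, median 2.39), and H1f8, an oocyte linker histone, and Oas1d, an oocyte enzyme, passed the test. All 5 erythroid genes had negative values at day 4 (−1.46 to −0.48), 4 of them at an unadjusted p under 0.05. All 5 epithelial genes were negative too (−0.96 to −0.27), 1 of them at such a p, and no gene of either list passed. Both granulosa markers, Dhh and Cdkn1b, were positive (0.42 and 0.75, each at an unadjusted p under 0.05). Cdkn1b is counted again below among cell cycle genes that are not members. Of 6 stroma and smooth muscle markers, a list that holds the member S100a6, 5 were positive (−0.08 to 0.71), 2 of them at such a p. All 3 steroidogenic markers were positive (0.12 to 0.53), none at such a p. Of the endothelial markers 2 of 3 were negative, both at an unadjusted p under 0.05 (−1.14 to 0.00), the 1 leukocyte marker had −0.45, and none of these passed. The part of such shifts in the values of the members was not tested, and in whole ovaries fewer cells of a type and less RNA per cell cannot be told apart.

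**Figure D1:**
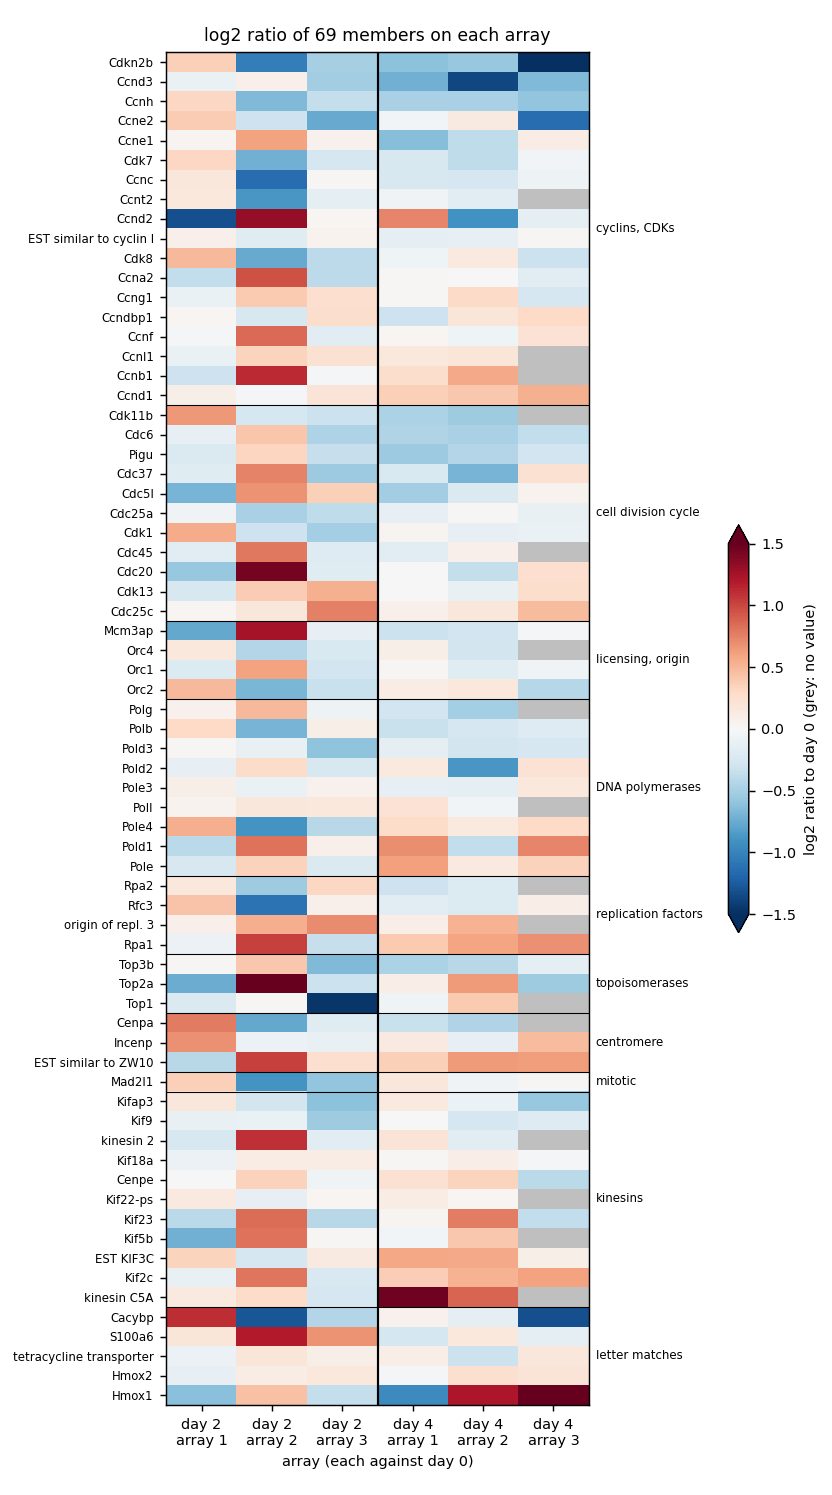
Log2 ratio to day 0 of the 69 members (rows, by role) on each of the 6 arrays (columns, day 2 then day 4), with colour from −1.5 to 1.5 and grey where an array had no value. Columns 1 and 2 show opposite colours in most rows, with Top2a at −0.75 and 1.83 and Ccnd2 at −1.32 and 1.32, while 8 rows are positive and 12 negative in all 3 day 4 columns.

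At day 4 against day 0 no member passed the test (limma, Benjamini-Hochberg adjusted p under 0.05 over 8135 probes), where 0.479% of all probes passed, each of those 39 with a higher value. Of the members, 30 had a positive and 39 a negative log2 ratio, with a median of −0.05 against −0.00 over all probes. At an unadjusted p under 0.05, 3 members (4.35%) were higher, where 5% of all probes were, and 5 members (7.25%) were lower, where 4.29% of all probes were. Those 3 were Ccnd1, the name kinesin family member C5A and an EST similar to KIF3C, and those 5 were Ccnd3, Cdkn2b, Ccnh, Pigu and Cdc6. Of the 53 members with a value on all 3 day 4 arrays, 8 were positive on all 3 (24.1% of probes were) and 12 were negative on all 3 (20.2% of probes were).

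The bounds say what the arrays could have missed. The 95% interval of the day 4 ratio stayed inside a 2-fold change either way for 51 of 69 members (73.9%), against 72.4% of all probes. Cdk1, for example, had an interval from −0.58 to 0.46 and Orc1, the largest origin recognition subunit, from −0.53 to 0.39. For Top2a, the topoisomerase of dividing cells, the interval ran from −1.17 to 1.31, so that it takes in a 2-fold change in either direction. For Ccnd3, Cdkn2b and kinesin C5A the interval reached past 2-fold on 1 side.

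**Figure D2:**
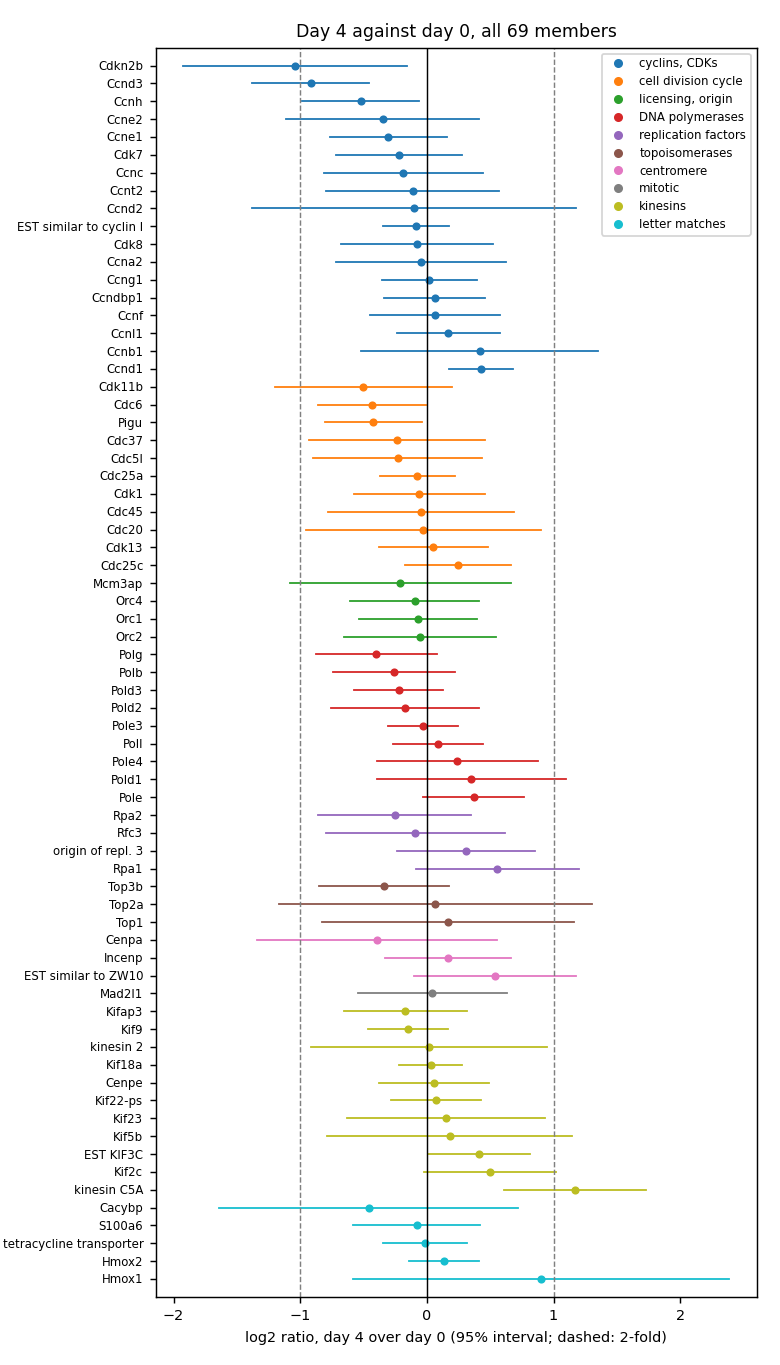
Log2 ratio of day 4 over day 0 with its 95% interval for the 69 members, coloured by role, with dashed lines at a 2-fold change. Kinesin C5A (1.17), Ccnd1 (0.43), Ccnd3 (−0.92) and Cdkn2b (−1.04) have intervals on 1 side of 0. So have the EST similar to KIF3C, Ccnh, Pigu and Cdc6, and no member passed the adjusted test.

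Among the cyclins and their kinases the D-type cyclins, which start the cycle in response to growth signals, gave 3 unlike patterns. The group was set by the words of the annotation, and its 18 names also hold the kinase inhibitor Cdkn2b. Cdk1, Cdk11b and Cdk13 were counted with the cell division cycle genes instead. Of these 18 names 6 were positive and 12 negative at day 4, with a median of −0.09. Ccnd3 had log2 ratios of −0.72, −1.37 and −0.67 on day 4 arrays 1 to 3. All 3 lie below 0, and the mean of −0.92 ± 0.19 (SE, n = 3), a ratio of 0.53, had an adjusted p of 0.156 by limma. Ccnd1 had 0.35, 0.41 and 0.53 on the same arrays. All 3 lie above 0, within a narrow range, and the mean was 0.43 ± 0.10 (SE, n = 3, limma adjusted p = 0.221). Ccnd2 had 0.73, −0.90 and −0.13, so that its 3 arrays gave no common sign. Within each day 4 array Ccnd1 stood above Ccnd3, by 1.07, 1.78 and 1.19 on the log2 ratio scale, a description of ratios and not of levels.

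Cdkn2b, an inhibitor of the kinases that D-type cyclins bind, had the lowest mean of all members, with −0.62, −0.57 and −1.94 on the 3 day 4 arrays. Array 3 gave the lowest value of any member on any array, and the mean of −1.04 ± 0.36 (SE, n = 3) had a limma adjusted p of 0.441. Without array 3 the mean was −0.59. A second probe of Cdkn2b gave −0.42, −0.29 and −1.03, also negative on every day 4 array, with a mean of −0.58 ± 0.18 (SE, n = 3). Ccnh, the cyclin of the kinase that activates other cyclin-dependent kinases, had −0.49, −0.49 and −0.59 with a mean of −0.52 ± 0.19 (SE, n = 3, limma adjusted p = 0.471). Its kinase partner Cdk7 had −0.24, −0.38 and −0.04, negative on each day 4 array but close to 0 on 1 of them.

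None of the cyclins of later steps passed the test at day 4. Ccne1 and Ccne2, the cyclins of entry into DNA copying, had means of −0.30 ± 0.19 and −0.35 ± 0.31 (SE, n = 3 each). Ccne2 drew its mean from array 3, with −1.14, against −0.04 and 0.13 on the other arrays. Ccna2, the cyclin of DNA copying and entry into mitosis, had 0.02, −0.00 and −0.15. Ccnb1 had 0.26 and 0.57 on the arrays that measured it, with a mean of 0.42 ± 0.37 (SE, n = 2). Ccnc and Cdk8, a cyclin and kinase pair of the Mediator complex, had means of −0.19 and −0.08, and the 6 other names of this group lay between −0.11 and 0.17.

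The genes named after cell division cycle mutants were mostly negative at day 4, with 2 positive and 9 negative of 11 and a median of −0.07. By array, the medians were −0.17, −0.22 and 0.05, and array 3 had 5 positive and 4 negative of the 9 names it measured. Cdc6, which loads the replicative helicase onto origins, had −0.45, −0.48 and −0.37 on day 4 arrays 1 to 3. These 3 values lie close together and below 0, and the mean of −0.43 ± 0.18 (SE, n = 3) had a limma adjusted p of 0.531. Pigu had −0.55, −0.44 and −0.28, with a mean of −0.42 ± 0.16 (SE, n = 3, limma adjusted p = 0.481). Cdk11b, a kinase tied to transcription and splicing, had −0.48 and −0.53, with no value on array 3. Cdc25c, a phosphatase that switches on Cdk1, had the highest mean of the group with 0.24 ± 0.17 (SE, n = 3). Its relative Cdc25a had −0.07 ± 0.12, and Cdk1 had 0.04, −0.12 and −0.11. Cdc45, a part of the helicase, had −0.05 ± 0.29 (SE, n = 2). Cdc20 had 0.01, −0.35 and 0.25, on both sides of 0.

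The 4 licensing and origin names all had negative means at day 4, each of them small. Mcm3ap, a protein that binds a helicase subunit and also serves mRNA export, had −0.21, and Orc4, Orc1 and Orc2, subunits of the complex that marks origins, had −0.10, −0.07 and −0.05. Mcm3 and Mcm5, subunits of the replicative helicase, did not fall under the rule because their annotation writes minichromosome as 2 words. These 2 genes had values of −0.46, −0.71 and 0.00 (Mcm3) and −0.49, −0.73 and 0.25 (Mcm5) on day 4 arrays 1 to 3. Arrays 1 and 2 were negative for both and array 3 was not.

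Of the 9 DNA polymerase names 4 were positive and 5 negative at day 4, with a median of −0.03. Pole, the catalytic subunit that copies the leading strand, had 0.61, 0.14 and 0.35, positive on all 3 arrays, with a mean of 0.37 ± 0.16 (SE, n = 3, limma adjusted p = 0.582). Its small partners Pole3 and Pole4 had −0.03 ± 0.11 and 0.24 ± 0.26. Pold1, the catalytic subunit for the lagging strand, had 0.70, −0.37 and 0.73, with array 2 apart from the others. Its partners Pold2 and Pold3 had −0.17 ± 0.24 and −0.22 ± 0.14. Polg, the polymerase of mitochondrial DNA, had the lowest mean of this group, −0.40 ± 0.19 (SE, n = 2), from −0.28 and −0.51. The repair polymerases Polb and Poll had −0.26 and 0.09.

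Rpa1, the large subunit that coats single-stranded DNA, had 0.39, 0.59 and 0.69 on day 4 arrays 1 to 3. All 3 lie above 0, and a second probe gave 1.04, 0.78 and 0.06, also above 0. The means were 0.56 ± 0.26 and 0.63 ± 0.25 (SE, n = 3 each), with limma adjusted p of 0.615 and 0.533. Rpa2, the middle subunit of the same complex, had −0.31 and −0.20 on the 2 arrays that measured it, below 0. Rfc3, a clamp loader subunit, had −0.09 ± 0.29, and the clone annotated as origin of replication 3 homolog had 0.31 ± 0.21. Among topoisomerases Top2a had 0.10, 0.63 and −0.53, Top1 had −0.06 and 0.40, and Top3b had −0.47, −0.41 and −0.13.

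Kinesins were mostly positive at day 4, with 9 of 11 above 0 and a median of 0.07. The split rested on arrays 1 and 2, with medians of 0.14 and 0.33 over 11 names, while array 3, which measured 7 of them, had a median of −0.19. The 7 names with values on all 6 arrays had 5 positive and 2 negative means, which became 2 positive and 5 negative without day 4 array 2. The clone annotated as kinesin family member C5A, a name that RefSeq lists for both Kifc1 and Kifc5b, minus-end motors of the spindle, had the highest mean of all members. It had 1.46 and 0.88 on the 2 arrays that measured it, and the mean of 1.17 ± 0.22 (SE, n = 2), a ratio of 2.25, had a limma adjusted p of 0.16. A second probe of that name gave 0.81, 0.32 and 0.50, with a mean of 0.55 ± 0.16 (SE, n = 3, limma adjusted p = 0.316). Both probes were positive on every day 4 array that measured them, and their means differed by 0.62. Signals of near-identical gene copies cannot be separated on such clones.

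Kif2c, which takes apart microtubules at centromeres, had 0.37, 0.52 and 0.60, with a mean of 0.50 ± 0.21 (SE, n = 3, limma adjusted p = 0.571). The EST similar to KIF3C, a cargo motor, had 0.58, 0.57 and 0.08. Kif23, a motor of the last step of division, had means of 0.15, 0.24 and 0.29 over its 3 probes. Cenpe, a motor that sits at centromeres, had 0.05 ± 0.18, and Kif18a, which aligns chromosomes, had 0.03 ± 0.10. Kifap3, an adaptor of cargo motors, had −0.17 ± 0.20 and was the lowest of the group.

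Of the 3 centromere names, Cenpa, the histone that defines the centromere, had −0.33 and −0.45, and Incenp, a partner of Aurora B kinase, had 0.14, −0.12 and 0.48. The EST similar to ZW10, a spindle checkpoint protein in flies and mammals, had 0.36, 0.63 and 0.63, positive on all 3 arrays, with a mean of 0.54 ± 0.26 (SE, n = 3, limma adjusted p = 0.62). Mad2l1, a core protein of the same checkpoint, had 0.17, −0.06 and 0.02, on both sides of 0.

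**Figure D3:**
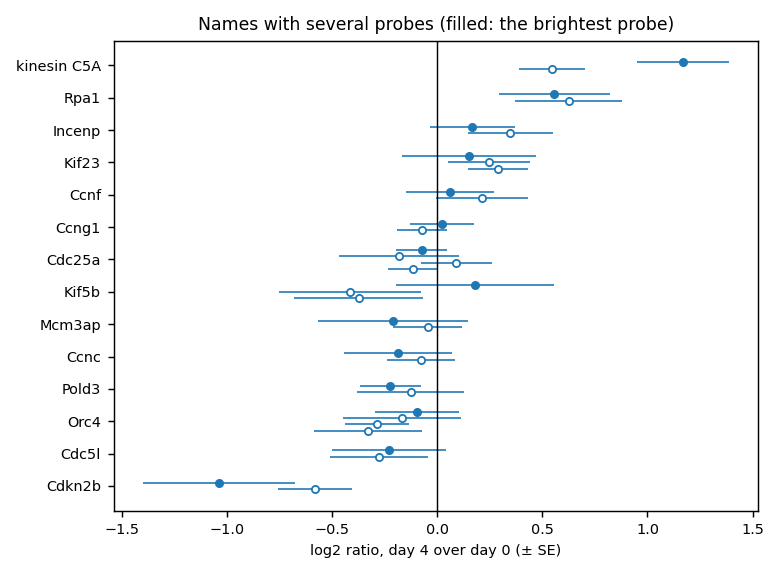
Log2 ratio of day 4 over day 0 (± SE) for every probe of the 14 names with several probes, with the brightest probe filled. In 11 names all probes lie on 1 side of 0, and Kif5b is split, with 0.18 for its brightest probe and −0.42 and −0.37 for the others.

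The 14 names with several probes held 34 probes in all, and they show how far 1 clone stands for a gene. At day 4 all probes had the same sign in 11 names, 5 of them positive and 6 negative. Ccng1, Cdc25a and Kif5b had probes of both signs. Orc4 had 4 probes, all negative, from −0.33 to −0.10. Kif5b, a cargo motor, spread over 0.60, and kinesin C5A over 0.62. In the other names but Cdkn2b the spread was at most 0.27, and in Rpa1 it was 0.07.

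At day 2 against day 0 no member passed the test, nor did any probe (0% of 8135 by limma), while 140 probes were higher and 91 lower at an unadjusted p under 0.05. Of the members, 39 had a positive and 30 a negative mean, with a median of 0.02 against 0.01 over all probes. At an unadjusted p under 0.05, 2 members were higher (2.90%, where 1.72% of all probes were) and 1 was lower (1.45%, where 1.12% of all probes were). The letter match S100a6 was 1 of the 2 higher. Without the letter matches, 1 of 64 names was higher and 1 lower (1.56% each). With the sign of array 1 turned 16 members in either direction had such a p, with 1884 of all probes, and with that of array 2 turned 14 had, with 1120 of all probes. No member passed the adjusted test under either turn. With the sign of array 1 turned the members split into 37 positive and 32 negative with a median of 0.05. With that of array 2 turned they split into 28 positive and 41 negative with a median of −0.06. Only 5 members were positive and 2 negative on all 3 day 2 arrays, where 9.04% and 7.33% of probes were.

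On day 2 arrays 1 and 2, 59 of 69 members (85.5%) had opposite signs, against 74.9% of all probes. On array 2 the members had a median absolute log2 ratio of 0.53, against 0.38 over all probes. The same medians were 0.18 against 0.19 on day 2 array 1 and 0.25 against 0.19 on day 2 array 3. On day 4 arrays 1 to 3 they were 0.17 against 0.17, 0.27 against 0.20 and 0.25 against 0.27. Top2a had −0.75, 1.83 and −0.33 on day 2 arrays 1 to 3, and Cdc20 had −0.57, 1.44 and −0.19. Ccnd2 had −1.32, 1.32 and 0.03, and Mcm3ap had −0.77, 1.24 and −0.12. All 4 were low on array 1 and high on array 2. In the other direction, Rfc3 had 0.43, −1.11 and 0.08, and Mad2l1 had 0.36, −0.90 and −0.60. Ccnb1, with −0.31, 1.12 and −0.03, and Ccna2, with −0.37, 0.96 and −0.39, were high on array 2 alone.

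**Figure D4:**
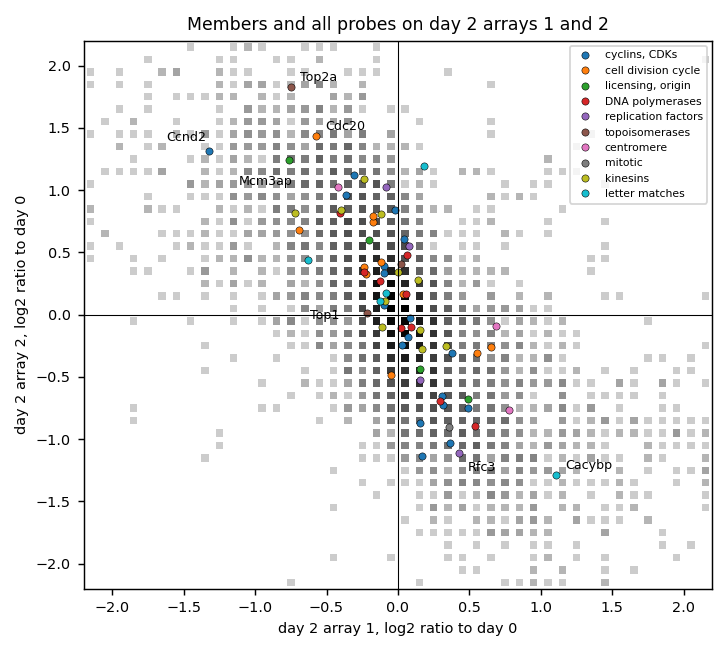
Log2 ratio to day 0 on day 2 array 1 (x) and array 2 (y) for the members (coloured by role) and for all probes (grey squares, darker for more probes). The members run from the upper left (Top2a, Cdc20, Ccnd2, Mcm3ap) to the lower right (Rfc3, Cacybp), and 59 of 69 lie where the signs are opposite.

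On day 2 array 3, which is not part of that opposition, the members had a median of −0.18 with 26 positive and 43 negative, against −0.00 for all probes. Flags were most frequent on this array, at 20.1% of its probes, against 6.7% to 10.8% on the others. The 3 topoisomerases were negative there, at −1.46 for Top1, −0.66 for Top3b and −0.33 for Top2a, as were the 4 licensing and origin names. A single array gives no replicate check. Member medians on day 2 arrays 1 and 2 were 0.02 and 0.16, and on the day 4 arrays 0.01, −0.11 and −0.03. By role, the day 2 means had medians of −0.01 for cyclins and their kinases, 0.02 for cell division cycle genes, −0.07 for licensing and origin genes and 0.04 for kinesins. With array 1 turned the same 4 medians were −0.04, 0.13, −0.05 and 0.09, and with array 2 turned they were 0.04, −0.30, −0.12 and −0.14. Kinesins were positive in 9 of 11 names at day 2 too, which became 6 of 11 with array 1 turned and 2 of 11 with array 2 turned.

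Among the members with the smallest p-values at day 2, S100a6, a calcium-binding protein of fibroblasts and smooth muscle caught by its old name calcyclin, had 0.18, 1.19 and 0.67, with a mean of 0.68 ± 0.20 (SE, n = 3, limma adjusted p = 0.966). All 3 lie above 0. The mean was 0.56 with array 1 turned and −0.11 with array 2 turned. The origin of replication 3 homolog had 0.08, 0.55 and 0.70, with a mean of 0.44 ± 0.17, and 0.39 and 0.08 with the same arrays turned. Cdc25c had 0.04, 0.16 and 0.75, with a mean of 0.32 ± 0.17, and 0.29 and 0.21 when turned.

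Ccne1 and Cdk13, a kinase of transcription, had 0.24 ± 0.19 and 0.23 ± 0.18 at day 2, and both were negative with array 2 turned (−0.17 and −0.03). On the lower side, Cdc25a had −0.05, −0.48 and −0.38, below 0 on all 3 arrays, with a mean of −0.30 ± 0.12, which was −0.27 with array 1 turned and 0.02 with array 2 turned. Top1 had a mean of −0.55 ± 0.32 that rested on array 3. Mad2l1 had −0.38 ± 0.24, and 0.22 with array 2 turned. Pold3 had −0.23 ± 0.14, and Kif9, a motor of cilia, −0.25 ± 0.13, and both stayed negative with either array turned. Top1 had −0.41 and −0.56 with array 1 and array 2 turned. Several of these means rested on 1 array. Without array 3 Cdc25c had 0.10, Cdk13 0.07, Pold3 −0.04, Kif9 −0.10 and Top1 −0.10, and without array 2 S100a6 had 0.43, Ccne1 0.05 and Mad2l1 −0.12.

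**Figure D5:**
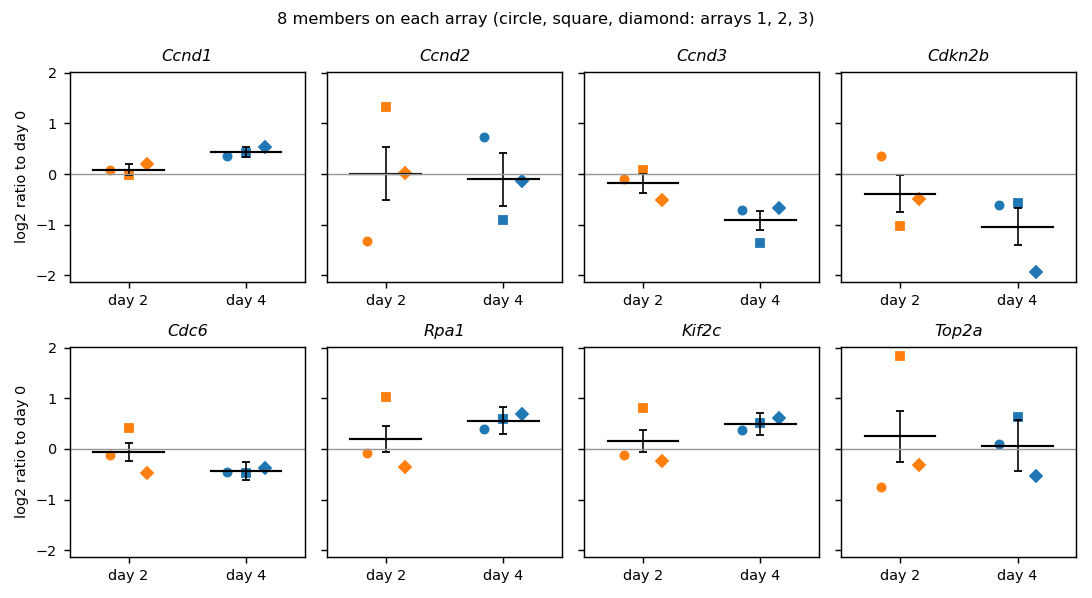
Log2 ratio to day 0 on each array for 8 members at day 2 and day 4 (circle, square and diamond for arrays 1, 2 and 3), with the mean as a line and its SE as a bar. Ccnd1 lies at 0.35 to 0.53 and Ccnd3 at −1.37 to −0.67 at day 4, apart from their own day 2 values, while Ccnd2 and Top2a spread across 0 at both ages.

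Day 4 against day 2 compares the ages through day 0, and a dye effect shared by all arrays cancels in it. No member and no probe passed the test (0% of 8135 by limma), with 160 probes higher and 55 lower at an unadjusted p under 0.05. Of the members, 31 had a positive and 38 a negative difference with a median of −0.04, against −0.01 over all probes. Cell division cycle genes had the most one-sided split, with 2 positive and 9 negative of 11 and a median of −0.24, and kinesins had 8 positive and 3 negative with a median of 0.10. With day 2 array 2 turned the cell division cycle genes had 6 positive and 5 negative, and with day 2 array 1 turned the kinesins had 6 positive and 5 negative. Over all members the median was −0.04 with day 2 array 1 turned and 0.04 with array 2 turned. At an unadjusted p under 0.05, 1 member was higher (1.45%, where 1.97% of all probes were) and 2 were lower (2.90%, where 0.676% of all probes were). S100a6, a letter match, was 1 of those 2. Without the letter matches, 1 of 64 names was higher and 1 lower (1.56% each). With day 2 array 1 turned 10 members in either direction had such a p, with 931 of all probes, and with array 2 turned 11 had, with 721 of all probes.

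Of the 53 members with 6 values, Ccnd1 alone had every day 4 array above every day 2 array, where 4.14% of probes had that. Ccnd3 and S100a6 had every day 4 array below every day 2 array, where 2.73% of probes had that. Ccnd1 had 0.35, 0.41 and 0.53 at day 4, against 0.08, −0.03 and 0.20 at day 2. The difference was 0.34 ± 0.15 (SE, n = 3 each), and 0.40 or 0.33 with day 2 array 1 or 2 turned. Ccnd3 had −0.72, −1.37 and −0.67 at day 4, against −0.10, 0.07 and −0.52 at day 2. The difference was −0.74 ± 0.27 (SE, n = 3 each), and −0.80 or −0.69 when turned. Both differences kept their sign under either turn, and neither passed the adjusted test.

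S100a6 had −0.26, 0.15 and −0.14 at day 4, against 0.18, 1.19 and 0.67 at day 2. Its day 4 array 2 lay just below its lowest day 2 array, and the difference of −0.76 ± 0.29 (SE, n = 3 each) was −0.64 or 0.03 with array 1 or 2 turned and −0.51 without day 2 array 2. Kinesin C5A had 1.46 and 0.88 at day 4, against 0.14, 0.28 and −0.25 at day 2. The difference was 1.11 ± 0.28 (SE, n = 2 at day 4 and 3 at day 2), with 1.21 or 1.30 when turned. Further differences with small p-values were those of Pole (0.41 ± 0.23), the EST similar to KIF3C (0.34 ± 0.23) and Top1 (0.72 ± 0.50) on the higher side. Ccne1 (−0.54 ± 0.27), Polg (−0.55 ± 0.24) and Pigu (−0.34 ± 0.22) stood on the lower side. Those 6 kept their sign with either array turned. Their size rested in part on single arrays: Top1 had 0.27 without day 2 array 3, and without day 2 array 2 the EST similar to KIF3C had 0.17, Ccne1 −0.36 and Pigu −0.14.

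Cell cycle genes that are not members, among them Cdkn1b, which the rule leaves out by name, were counted from a list of their own. Mcm3 and Mcm5, both with negative means at day 4, were not on that list. Of its 31 measured genes 29 were tested, and none passed at day 4 against day 0, day 2 against day 0 or day 4 against day 2. At day 4 against day 2, 15 were positive and 14 negative with a median of 0.01, against −0.01 over all probes. At day 4 against day 0, 18 were positive and 11 negative with a median of 0.11, against −0.00 over all probes. At an unadjusted p under 0.05 by limma 3 were higher (10.3%, where 5% of all probes were) and 0 lower (where 4.29% of all probes were). The 3 were Ncapg, a condensin subunit, with 0.44 ± 0.17, Bub1b, a spindle checkpoint kinase, with 0.45 ± 0.13, and Cdkn1b, an inhibitor of cyclin-dependent kinases, with 0.75 ± 0.17. Mki67, the usual marker of dividing cells, had −0.66, 0.23 and −0.50 on day 4 arrays 1 to 3, and Pcna, the sliding clamp, had 0.04, −0.02 and −0.71. The meiotic genes Sycp3 and Msh4 had 0.01 ± 0.13 and −0.06 ± 0.13.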

How the data were processed

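Ovary RNA of day 2 or day 4 was measured against day 0 on 6 spotted 2-colour cDNA arrays. The deposited files give 4 repeat log2 ratios per probe and array, their mean and a mean log2 intensity. The headers do not define the flags that the authors also deposited. R 1.7.1 was used, per the submitters' processing notes, and the sources used here name no background correction or normalization method. Each array's deposited log2 ratios had a median near 0, and they were used as they stand.

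The mean of 4 repeats per probe and array was fitted with limma 3.58.1 in R 4.3.3 (lmFit and eBayes), 1 mean per age over all 6 arrays, 2-sided. Probes with values on at least 2 arrays of each age (8135 of 8272) were tested, and p-values were adjusted by Benjamini-Hochberg over all of them. The code was tested on simulated data. Each SE and 95% interval comes from this fit, which pools both ages, and n is the number of arrays with a value.

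Members were given current symbols through RefSeq (62 of 69) and otherwise kept the file's name. Members with values were named by a rule: the 5 smallest p-values per direction and comparison, the highest and lowest of each role, and a fixed panel of 48 genes, 26 of them measured. The members and lists were chosen with earlier results of these data known. Other members named, and genes outside the rule named beside them, were chosen after their values were seen. Alternatives were other normalizations, filters, flags, variance models, turned signs, a replicate block and left-out arrays. Arrays 1 and 2 of day 2 left out together, and the 5 letter matches left out, were added after seeing the data.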

Additional observations from a re-analysis of the deposited data

How the results depend on the processing

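No member passed the adjusted test in any comparison under any alternative run. At day 4 against day 0, 8 members had a limma unadjusted p under 0.05 in the main fit, with 756 of 8135 probes. With the day 4 arrays fitted alone 18 members had, with 1788 probes. Without day 2 array 2 it was 14, with 1176 probes, and with scale normalization 13, with 1051 probes. Without array 3 of both ages it was 2, with 433 of 7775 probes. The number of probes passing at day 4 against day 0 (39) moved to 96 with scale normalization, to 126 with trended and robust variances, to 166 with the day 4 arrays fitted alone and to 166 without day 2 arrays 1 and 2. It was 0 with the sign of day 2 array 2 turned (897 at an unadjusted p under 0.05) and 0 without array 3 of both ages (433). Leaving out 1 array gave 0 to 71: 0 without day 4 array 1, 2 or 3 (339, 380 and 588 at an unadjusted p under 0.05), and 71, 57 and 16 without day 2 array 1, 2 or 3. For day 4 against day 2, 1 probe passed with trended and robust variances. The median of the members at day 2 was −0.18 without day 2 arrays 1 and 2. The cause of these moves was not tested.

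Of 58 named values 43 kept their sign under every alternative and 15 did not. At day 4 against day 0, without array 3 of both ages, Ccna2 was 0.0067, Ccne2 0.046, Orc2 0.13 and Kifap3 0.029, and without flagged values Cenpe was −0.038. Leaving out 1 array gave −0.079 to 0.0067 for Ccna2, −0.52 to 0.30 for Ccnd2, −0.59 to 0.046 for Ccne2, −0.17 to 0.13 for Cdc20, −0.16 to 0.13 for Orc2, −0.22 to 0.37 for Top2a, −0.086 to 0.28 for Cenpe, −0.32 to 0.029 for Kifap3 and −0.020 to 0.092 for Mad2l1. With the sign of day 2 array 2 turned, day 2 against day 0 gave −0.11 for S100a6, −0.028 for Cdk13, −0.17 for Ccne1, 0.018 for Cdc25a and 0.22 for Mad2l1, and day 4 against day 2 gave 0.033 for S100a6.

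Arrays of different ages share replicate numbers. Deviations from the age means correlated at 0.37, 0.05 and 0.51 for numbers 1, 2 and 3 over 5270 probes, so the numbers were not taken to pair arrays, and not every array correlated best with its own number. Day 2 array 3 and day 4 array 3, which share their day 0 RNA, had r = 0.77 over 5630 probes. The main fit takes all arrays as independent, so that link is not accounted for in day 4 against day 2. With the replicate number as a random replicate block (correlation 0.19), 48 probes passed at day 4 against day 0. With 3 arrays per age, the number of arrays limits the precision, and the spread between the opposed day 2 arrays enters the pooled SE.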
